A study of Mus musculus with 6 samples.

Results

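The replication-dependent histone genes are the 71 mouse genes, of the gene records used here, that carry a former name of the Hist1h to Hist4h type or a current H1f1 to H1f5, H2ac, H2bc, H3c, H4c, H2aw or H2bu symbol. Of these, 31 had an array probeset of their own and are the genes described, out of 19938 genes named on the array. Another 38 lay only on probesets shared by several genes and were left out, and 2 were on no named probeset. Each of the 31 had 1 probeset of its own. They comprised 5 H1, 5 H2A, 11 H2B, 3 H3 and 7 H4 genes. By former name, 23 belonged to the large Hist1 cluster on chromosome 13, 4 to Hist2 on chromosome 3, 3 to Hist3 on chromosome 11 and 1 to Hist4 on chromosome 6. One of them, H2bu1-ps, is annotated as a transcribed pseudogene, and H1f6, H2ac1 and H2bc1 are known as testis genes.

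The brains were those of male C57BL/6J mice, an inbred strain, at postnatal day 7. Ethanol pups had been injected under the skin with 20% ethanol in saline, in 2 doses of 2.5 g/kg given 2 h apart, and control pups with saline alone, and whole brains were taken 4 h after the first dose. Every array held RNA pooled from 3 males of different litters, so that values are pool averages and no single pup can be seen. There were 2 ethanol arrays, numbered 2 and 4 as in the labels, and 4 saline arrays, numbered 1, 3, 5 and 6, from 18 pups. Values are log2 intensities, levels are given per array or as mean ± SD, and a change is the log2 difference ethanol minus saline with its standard error (SE) and 95% interval from limma, a linear model fitted over all genes (n = 2 and 4). With so few arrays, the precision of every value is limited by their number.

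Core histones H2A, H2B, H3 and H4 form the octamer around which DNA is wound, and linker histones of the H1 family bind where DNA enters and leaves it. The replication-dependent genes are the source of most histone protein in S phase. Their mRNAs carry no intron and, instead of a poly(A) tail, end in a stem-loop bound by the protein SLBP, and they are degraded quickly when DNA synthesis stops. In the brain of a mouse pup the main dividing cells are cerebellar granule cell precursors, glial precursors and progenitors of the ventricular zones. The labelling kit named in the labels is a whole-transcript kit that does not depend on a poly(A) tail. In whole tissue, fewer dividing cells and less histone RNA per cell cannot be told apart.

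The sequences upstream of these genes were searched for letter strings known from histone promoters. RefSeq (GRCm38.p6) held a start for 26 of the 31 genes, and 5 letter strings were searched on both strands in the 250 bases before each start. CCAAT, the box bound by NF-Y, was present in all 5 H1, all 5 H2A and all 8 H2B windows, in 1 of 2 H3 and in 2 of 6 H4 windows, against 33.8% of 32851 windows over all starts. ATTTGCAT, the octamer bound by POU factors and long known from H2B promoters, was found in 5 of 8 H2B and 4 of 5 H2A windows and in none of H1, H3 or H4, against 1.6% of all windows. AAACACA, known from H1 promoters as the AC box, was found in 4 of 5 H1, 2 of 5 H2A and 2 of 8 H2B windows and in none of H3 or H4 (6.25% of all windows). GGTCCG, the end of the H4 subtype element that HINFP binds, was found in 5 of 6 H4 windows, in 1 H2B window and in none of H1, H2A or H3 (6.72% of all windows). TATAAA was found in 15 of 26 windows, in every family (12.4% of all). None of the 5 strings separated H2A from H2B, though some of their matches are the same sites, in the overlapping windows named below. None of the strings contains another. Only exact letters were searched, a match is no proof of binding, and the absence of one says only that these letters are not in the window.

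The windows of 4 genes are shown because these genes had the smallest unadjusted p of their family, H1f2 for H1, H2ac8 for H2A and H4c3 for H4, or, for H2bc22, the smallest among H2B genes below 0. Capitals mark every match to the 5 strings on either strand.
H1f2, chr13:23738557-23738806, plus strand: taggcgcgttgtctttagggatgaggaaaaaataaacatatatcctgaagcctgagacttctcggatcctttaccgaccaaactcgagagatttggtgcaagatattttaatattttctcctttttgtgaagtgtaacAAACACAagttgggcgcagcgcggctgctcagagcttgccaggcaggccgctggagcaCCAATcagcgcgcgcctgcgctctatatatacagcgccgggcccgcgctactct
H2ac8, chr13:23571221-23571470, minus strand: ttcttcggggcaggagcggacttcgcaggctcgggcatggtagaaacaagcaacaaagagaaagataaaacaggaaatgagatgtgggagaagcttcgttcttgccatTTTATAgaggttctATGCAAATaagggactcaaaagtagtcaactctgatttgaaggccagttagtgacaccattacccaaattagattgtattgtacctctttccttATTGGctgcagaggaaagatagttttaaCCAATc
H2bc22, chr13:21787238-21787487, plus strand: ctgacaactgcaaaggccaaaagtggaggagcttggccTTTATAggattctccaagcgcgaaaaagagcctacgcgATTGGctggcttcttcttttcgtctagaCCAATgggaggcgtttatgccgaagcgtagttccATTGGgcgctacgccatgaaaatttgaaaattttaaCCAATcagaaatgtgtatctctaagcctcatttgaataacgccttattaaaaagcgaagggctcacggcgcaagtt
H4c3, chr13:23698459-23698708, minus strand: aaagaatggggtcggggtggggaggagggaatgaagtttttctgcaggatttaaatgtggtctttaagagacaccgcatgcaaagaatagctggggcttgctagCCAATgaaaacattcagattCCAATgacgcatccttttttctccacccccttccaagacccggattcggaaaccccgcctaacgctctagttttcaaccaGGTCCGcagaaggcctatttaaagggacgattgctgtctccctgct

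In H1f2 the AC box began at position -112 and CCAAT at -54, where -1 is the last base before the start. GGTCCG began at -46 in H4c3, H4c6 and H4c9, at -47 in H4c4 and at -32 in H4f16. The H2ac8 window holds the octamer at -128, on the opposite strand, and it shares 179 bases with the window of its neighbour H2bc8, which is read the other way. The same octamer is therefore counted for both of these genes, and so are all their CCAAT and TATAAA matches. The windows of H2ac1 (chr13:23934187-23934436, plus strand) and H2bc1 (chr13:23934157-23934406, minus strand) overlap too. Their octamer, at -124 and -164, and their AC box, at -226 and -61, are again the same sites, each counted in both families. H2bc22 has 4 CCAAT matches, 2 on each strand, and no octamer, and H4c3 has 2 CCAAT matches.

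The histone genes stayed close to their saline level in the ethanol arrays. Of the 31 genes, 28 were bright enough to be tested, and none passed the limma test among all genes, where 12 of 14953 tested genes did (0.0803%). The log2 changes ran from -0.13 to 0.23, the lowest adjusted p was 0.232, and every 95% interval lay within 0.5 of 0 on the log2 scale. The widest bound was 0.39, or 1.31-fold. The 3 genes below the 25% dim limit of 5.55 were H3c7, H3c15 and H1f6, with means of 5.42, 5.36 and 5.03, and the lowest tested gene was H2bc1 at 6.04. H2bc1 was also the 1 tested gene within the background range, taken as the 95th percentile of olfactory and vomeronasal receptor genes (6.21). The number of tested histone genes per family was 4 for H1, 5 for H2A, 11 for H2B, 1 for H3 and 7 for H4.

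The few small p-values were on the higher side. In limma at an unadjusted p under 0.05, 4 of 28 histone genes were higher and 0 lower, where 3.85% of all tested genes were higher and 8.44% lower. Centring the arrays on their medians turned those shares over all genes to 6.81% and 6.00%, and the histone counts to 5 and 0. Both ethanol arrays lay above all saline arrays for 6 histone genes (7.68% of all tested genes) and below them for 4 (14.9% of all tested genes). The median change was 0.06, with 18 genes above 0 and 10 below, beside -0.02 over all tested genes, of which 41.4% lay above 0. For 22 of the 28 genes the saline arrays alone spanned more than the change. The count of higher genes fell to 2 without saline array 1, where 3.62% of all tested genes were higher. The median was -0.01 without ethanol array 2 and 0.02 without saline array 3. The count of genes with no overlap was 6 to 7 on the higher side and 4 to 5 on the lower with 1 saline array left out. Fewer saline arrays make no overlap easier for every gene, and the share over all tested genes was not counted there. The count is not given here with 1 ethanol array left, because a single value falls outside the saline values more easily. The count of lower genes became 1 without saline array 1 or saline array 3, where 9.32% and 10.5% of all tested genes were lower.

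**Figure D1:**
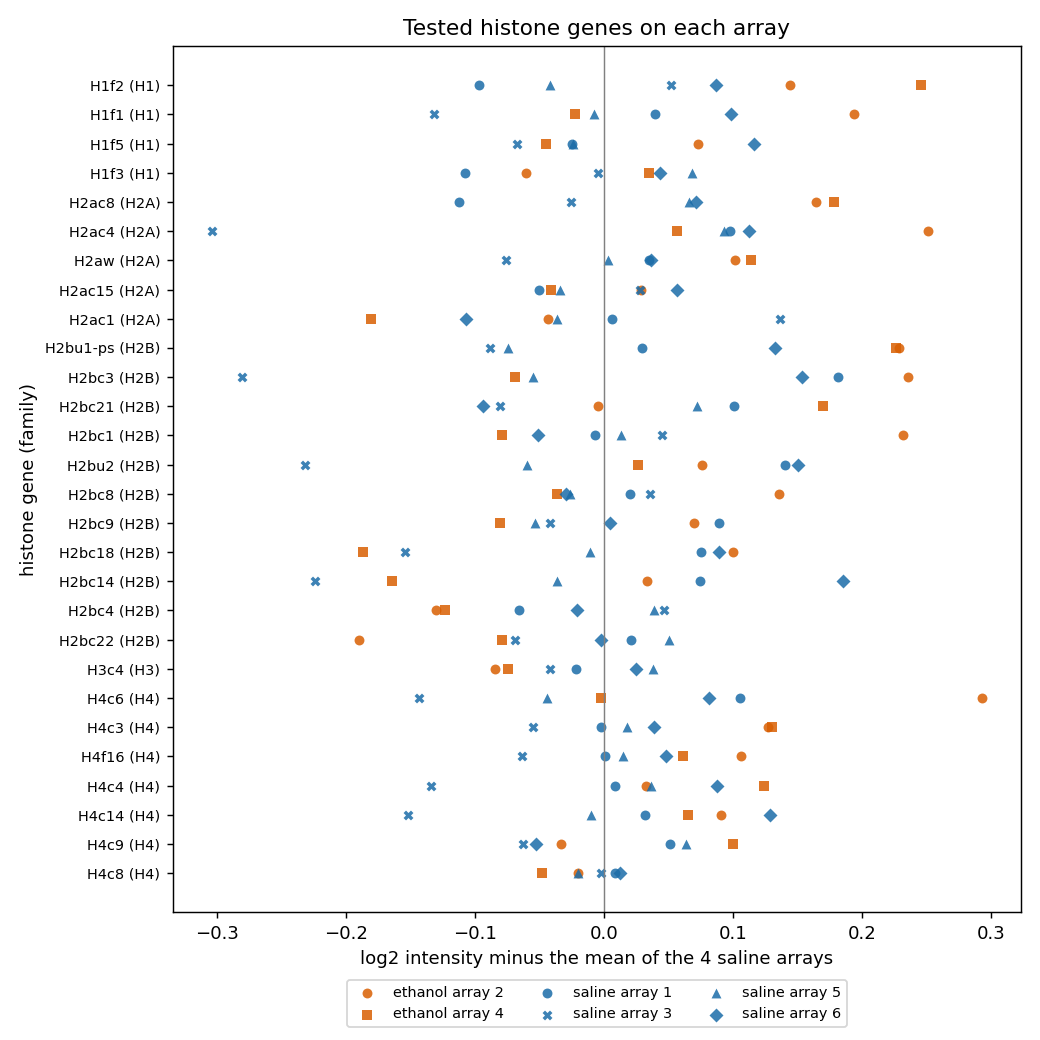
Log2 intensity of each of the 28 tested histone genes on each array, as the difference from the mean of the 4 saline arrays. Orange symbols are the 2 ethanol arrays, blue symbols the 4 saline arrays, and genes are ordered by family and change. The points of the 2 groups are mixed for most genes, and 6 genes have both orange points to the right of all blue ones.

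Among the linker histones, H1f2, the H1.2 gene, read 9.57 and 9.67 with ethanol (arrays 2 and 4), against 9.33, 9.48, 9.38 and 9.51 on saline arrays 1, 3, 5 and 6. Both ethanol arrays lay above all 4 saline arrays, by less than the spread among the saline arrays. The change was 0.19 ± 0.07 (SE), or 14.5%, with an interval of 0.04 to 0.35 (unadjusted p = 0.0153, adjusted p = 0.283 in limma). It was 0.16 without saline array 1 and 0.14 without ethanol array 4. H1f1 read 8.69 and 8.47 with ethanol and 8.53, 8.36, 8.48 and 8.59 with saline. Its 2 ethanol pools thus lay on either side of several saline pools, and the change of 0.09 ± 0.08 was positive only through array 2 (-0.02 without it). H1f5, with 9.35 and 9.24 against 9.26, 9.21, 9.26 and 9.40, had a change of 0.01 ± 0.07 that was -0.0092 with array weights. H1f3 had -0.01 ± 0.07, which became 0.0056 after centring and 0.016 after quantile normalization. For these last 2 genes the intervals were -0.14 to 0.16 and -0.16 to 0.13.

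Among H2A genes, H2ac8 of the Hist1 cluster read 6.76 and 6.77 with ethanol and 6.48, 6.57, 6.66 and 6.67 on saline arrays 1, 3, 5 and 6. The ethanol values were close together and above every saline value. Its change was 0.17 ± 0.07, with an interval of 0.03 to 0.32 (unadjusted p = 0.0253, adjusted p = 0.332 in limma). Without saline array 1 the change was 0.13 (unadjusted p = 0.071 in limma). H2aw, the H2A gene of the Hist3 cluster, stood at 11.12 and 11.13 with ethanol and at 11.05, 10.94, 11.02 and 11.05 with saline. The groups did not overlap here either, and the change was 0.11 ± 0.06 (interval -0.02 to 0.24, unadjusted p = 0.0969 in limma). A probeset shared by H2aw and its neighbour Trim17 gave 0.09.

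H2ac4 illustrates how much 1 array weighs. It read 6.96 on saline array 3, against 7.36, 7.36 and 7.38 on saline arrays 1, 5 and 6, and its ethanol values were 7.52 and 7.32. The change of 0.15 ± 0.11 became 0.05 without saline array 3 and 0.06 without ethanol array 2. H2ac15 had a change of -0.01 ± 0.06 that turned to 0.012 after centring and 0.016 after quantile normalization, with an interval of -0.14 to 0.13. H2ac1, known from testis as TH2A, had -0.11 ± 0.08, which was -0.04 without ethanol array 4, -0.07 without saline array 3 and -0.18 without ethanol array 2.

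H2B genes, the largest family, went both ways. H2bu1-ps, the Hist3 pseudogene, had the smallest p of all members. It read 7.81 and 7.80 on the ethanol arrays, against 7.61, 7.49, 7.50 and 7.71 on saline arrays 1, 3, 5 and 6. Both ethanol arrays lay above all saline arrays, and the change was 0.23 ± 0.07, or 17.1% (interval 0.07 to 0.38, unadjusted p = 0.00764, adjusted p = 0.232 in limma). The change stayed between 0.20 and 0.27 whichever array was left out. Together with H2aw and H2bu2 (0.05 ± 0.10), the 3 Hist3 genes all had changes above 0. For H2bu2 the saline arrays spanned 0.38, far more than its change.

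On the lower side of H2B, H2bc22 read 7.09 and 7.21 with ethanol and 7.31, 7.22, 7.33 and 7.28 with saline. The higher ethanol value was only just below the lowest saline value, that of array 3. The change was -0.13 ± 0.06 (interval -0.27 to 0.00, unadjusted p = 0.0544, adjusted p = 0.414 in limma), and it was -0.08 without ethanol array 2. H2bc4 read 10.32 and 10.33 against 10.39, 10.50, 10.49 and 10.43. Both of its ethanol values lay below all saline values, with a change of -0.13 ± 0.06 (unadjusted p = 0.0577, adjusted p = 0.424 in limma). Values of H2bc21, a variant H2B gene studied in olfactory neurons, were 6.41 and 6.59 with ethanol and 6.52, 6.34, 6.49 and 6.32 with saline, so that the groups overlapped. Its change of 0.08 ± 0.08 was -0.0048 without ethanol array 4 and 0.17 without ethanol array 2.

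H4 genes encode nearly the same protein throughout, and 6 of the 7 tested had changes above 0. H4c3 read 7.75 on both ethanol arrays, against 7.62, 7.57, 7.64 and 7.66 on saline arrays 1, 3, 5 and 6. The ethanol arrays lay above all saline arrays, with a change of 0.13 ± 0.06 (interval 0.00 to 0.26, unadjusted p = 0.0476, adjusted p = 0.399 in limma). With 1 saline array left out, the unadjusted p of H4c3 in limma ran from 0.054 to 0.081. H4f16, the Hist4 gene, read 8.56 and 8.52 against 8.46, 8.40, 8.47 and 8.51, again without overlap, and had a change of 0.08 ± 0.06. H4c6 read 9.56 and 9.27 against 9.38, 9.13, 9.23 and 9.35. There the ethanol pools disagreed, and the change of 0.15 ± 0.09 came to -0.002 without ethanol array 2 and to 0.29 without ethanol array 4. H4c4 had 0.08 ± 0.07, with saline array 3 lowest at 12.23 and ethanol array 4 highest at 12.49. Without either of these arrays its change was 0.03. H3 was represented by H3c4 alone, which read 6.65 and 6.66 with ethanol and 6.72, 6.70, 6.78 and 6.76 with saline. Its ethanol values lay below all saline values, with a change of -0.08 ± 0.06 (interval -0.21 to 0.05).

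The 10 tested members not named by the rule had changes from -0.07 to 0.08 and a median of 0.04. None of them had an unadjusted p under 0.05 in limma, and the lowest adjusted p among them was 0.717. In 1 of them, H4c8, both ethanol arrays lay below all saline arrays, the nearest pair of values both reading 7.17. Their intervals reached from -0.28 to 0.35.

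**Figure D2:**
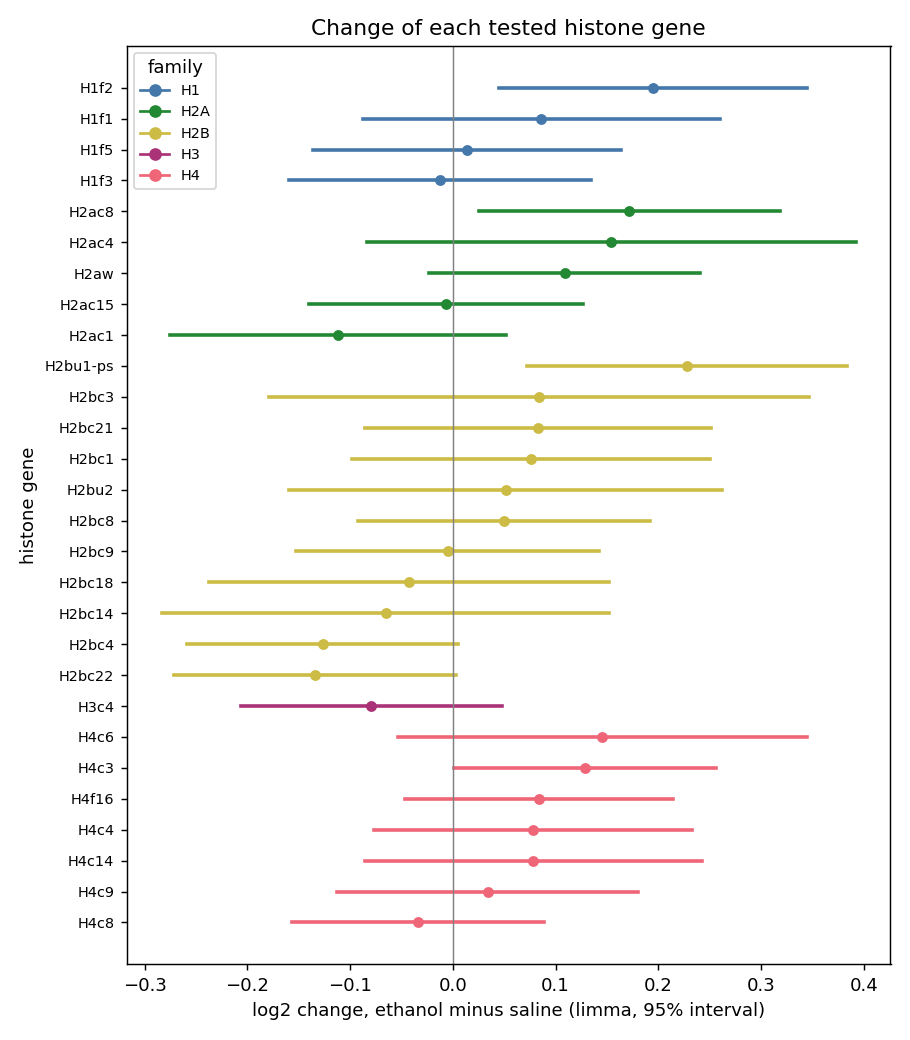
Log2 change, ethanol minus saline, of each tested histone gene with its 95% interval from limma, coloured by family. The intervals of 24 of the 28 genes span 0, and those of H2bu1-ps, H1f2, H2ac8 and H4c3 do not, before adjustment over all genes.

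By family the median change was 0.05 for 4 H1 genes, 0.11 for 5 H2A genes, 0.05 for 11 H2B genes and 0.08 for 7 H4 genes. The Hist1 genes, 21 tested, had a median of 0.03, with 12 above 0 and 9 below. No difference between families or clusters was tested.

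Histone genes resemble each other so closely in sequence that a probeset can take up RNA of its paralogs, and levels of single members are uncertain for that reason. Of the tested members, 17 also appear on a probeset shared with other genes. They had a median of 0.05, beside 0.08 for the 11 that do not. The 27 probesets that hold genes of the rule together with other genes, 2 to 20 genes each, had values identical to another in 2 cases, which leaves 25 distinct. Their changes ran from -0.04 to 0.09 with a median of 0.00, and the lowest unadjusted p was 0.163 in limma. The 10 probesets that hold 12 H3 genes each had changes between -0.03 and 0.00, with intervals inside -0.17 to 0.14, and thus cover the family for which 1 gene was tested alone. Shared H4 probesets, 6 in number and 5 of them distinct, had a median of 0.06 with the repeat counted. The 7 shared H2B probesets, 6 of them distinct, had a median of 0.01 counted the same way.

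The arrays differed in histone level within each group as much as between groups. As a mean deviation from each gene's own mean, the 28 genes stood at 0.06 for ethanol array 2 and at -0.0038 for ethanol array 4. The saline arrays 1, 3, 5 and 6 stood at 0.01, -0.09, -0.01 and 0.04. Ethanol array 4 thus lay between saline arrays 5 and 1, and saline array 3 was the lowest of all. Saline array 3 was the lowest saline array for 17 of the 28 genes and for 51.3% of all tested genes. The shared probesets gave 0.04 and -0.02 with ethanol and 0.00, -0.11, 0.00 and 0.09 with saline. Saline array 3 also stood apart, at 13.5, on the first principal component over all tested genes, which held 40.9% of the variance. On it the other saline arrays lay between -2.13 and 2.95, and ethanol arrays 2 and 4 lower, at -6.61 and -7.49. The part of saline array 3 in the histone result was not tested beyond leaving it out.

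**Figure D3:**
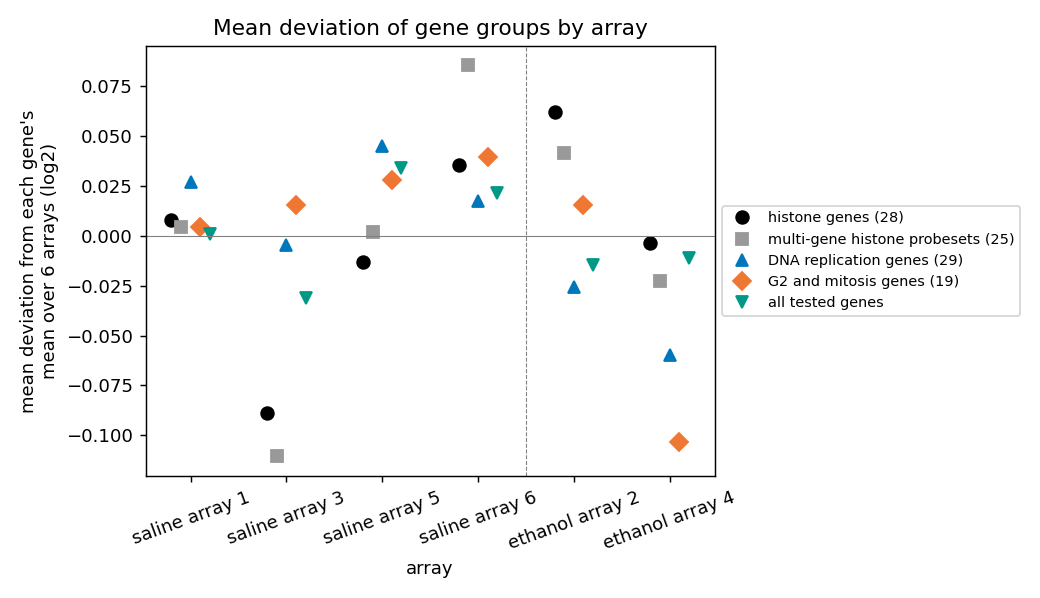
Mean deviation of gene groups from each gene's mean over the 6 arrays, by array, in log2 units, with numbers of genes in brackets. The histone genes and the shared histone probesets are lowest on saline array 3, at -0.09 and -0.11, while the replication and mitosis genes are lowest on ethanol array 4.

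Genes that act around the histone genes were given by lists, and in none of the 6 lists did a gene pass among all genes in limma. The counts that follow stand against 8.44% of all tested genes lower and 3.85% higher at an unadjusted p under 0.05, and 41.4% above 0. DNA replication and S phase genes had 5 of 29 tested members lower and 0 higher at an unadjusted p under 0.05. Of the 29, 8 lay above 0 and 21 below, with a median of -0.06 beside -0.02 over all tested genes, opposite in sign to that of the histone genes; the difference between the lists was not tested. Rrm2, a ribonucleotide reductase subunit, read 8.55 and 8.50 with ethanol and 8.63, 8.68, 8.74 and 8.82 with saline, a change of -0.19 ± 0.07. Mcm2, of the replicative helicase, also had -0.19 ± 0.07. Genes of G2 and mitosis (19 tested) had a median of -0.07, with 3 lower and 0 higher, beside 8.44% lower over all tested genes. The kinase genes Aurka and Bub1 had -0.25 ± 0.08 and -0.19 ± 0.06, which were -0.14 and -0.12 without ethanol array 4. This list deviated by 0.02 on ethanol array 2 and by -0.10 on ethanol array 4, so the ethanol pools were unlike each other in this list as well. The DNA replication list deviated by -0.03 and -0.06 on ethanol arrays 2 and 4, a smaller difference than its saline range of 0.05.

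Factors that process or degrade histone mRNA (24 tested) had a median of -0.07, with 4 lower and 0 higher at an unadjusted p under 0.05 (8.44% and 3.85% of all tested genes). In 8 of these 24 both ethanol arrays lay below all saline arrays, where 14.9% of all tested genes did. Lsm1, a subunit of the LSM ring that takes part in histone mRNA decay, had -0.23 ± 0.07, and the cap-binding protein gene Ncbp1 -0.18 ± 0.06. Slbp, which encodes the stem-loop binding protein and is named for that role and not by the rule, read 8.33 and 8.23 with ethanol and 8.39, 8.40, 8.51 and 8.41 with saline. Its ethanol values lay below all saline values, with a change of -0.15 ± 0.06 (unadjusted p = 0.0401, adjusted p = 0.376 in limma). Transcription factors of histone genes (16 tested) had a median of -0.05, with 2 lower, Ets1 (-0.22 ± 0.06) and E2f4 (-0.20 ± 0.08), and 0 higher, a count near the 8.44% lower over all tested genes. E2f4 had -0.09 without ethanol array 4 and -0.31 without ethanol array 2.

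Histone chaperones (20 tested) had a median of -0.05 with 2 lower and 0 higher, Npm1 (-0.18 ± 0.07) and Nasp, the chaperone of H3 and H4 (-0.22 ± 0.09), again near the 8.44% lower over all tested genes. Nasp had -0.14 without saline array 6. Histone variants made outside S phase (10 tested) had a median of -0.03 with 1 lower, H1f7, which is near background (-0.17 ± 0.07), and 0 higher. Macroh2a2 had -0.12 ± 0.06. Of the variants, H2az1, named after its values were seen, had 0.03 ± 0.06.

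**Figure D4:**
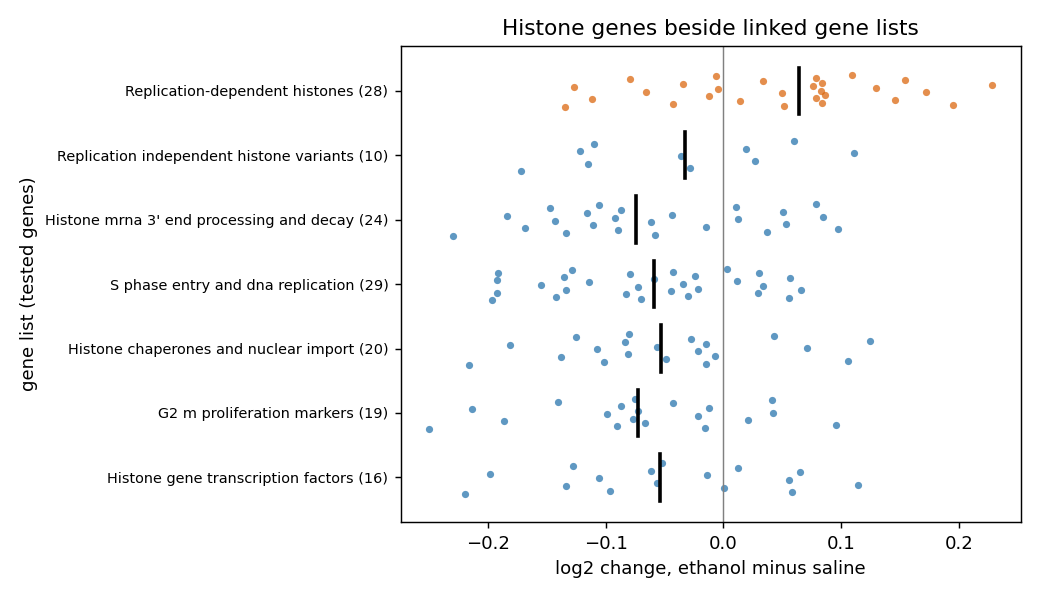
Log2 change of every tested gene in the histone group (orange) and in the 6 linked lists (blue), with the number of tested genes in brackets and the median as a black line. The histone median lies at 0.06 and the medians of the other lists between -0.07 and -0.03.

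Markers of the labelled tissue were present: all 8 neuronal and all 5 astrocyte markers were tested, with mean levels of the neuronal list from 11.65 to 11.79 over the 6 arrays. Markers of cerebellar granule cell precursors had 9 of 10 members below 0, 2 lower and 1 higher at an unadjusted p under 0.05 in limma. Over all tested genes 41.4% lay above 0, 8.44% were lower and 3.85% higher, and the marker counts below stand against the same shares. Their mean deviation was -0.03 for ethanol array 2 and -0.11 for ethanol array 4, and -0.02 to 0.07 over the saline arrays. Neural progenitor markers (9 tested) had 0.05 for ethanol array 2, -0.09 for ethanol array 4 and -0.04 to 0.05 over the saline arrays, with 0 members under that p. Oligodendrocyte lineage markers (6 tested) had 2 lower and 0 higher. Pituitary markers (5 tested) had 4 lower and 0 higher, with mean deviations of -0.09 for ethanol array 2 and -0.73 for ethanol array 4, and from 0.11 to 0.26 over the saline arrays. The part of these cell types in the histone values was not tested.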

How the data were processed

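RNA pools of whole brain were measured on 6 arrays, 2 ethanol and 4 saline. The values the authors deposited, 1 for each probeset on each array, were read as log2 intensities because they span 4.10 to 14.86. The submitters' processing notes name Partek 6.6. How background was corrected and probes normalized and summarised is not given in the sources used here. Of 35556 probesets, 21789 had 1 gene symbol in the platform annotation, 1621 had several, and the rest were unnamed here. Symbols were updated through 21698 matched gene records (RefSeq, GRCm38.p6), and former names came from the synonyms of those records. A gene was represented by its probeset with the highest mean, and the dimmest 25% of genes (4985) were left out. Treatment was the only term of the limma 3.58.1 fit (R 4.3.3; lmFit and eBayes, two-sided, 4 residual and 8.10 prior degrees of freedom), with Benjamini-Hochberg adjustment over 14953 genes at 0.05. The script was tested on simulated data.

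The members and lists were chosen with earlier results of these data known. Members are named if they pass, or are among the 4 smallest p or the highest mean of their family; of each linked list 2 genes are named. Replicates are pools of separate pups, and p-values measure the spread between pools. Ethanol pups had littermates among the controls, but no label pairs the pools. Alternatives were other filters on dim genes, other handling of probesets, 2 scalings, array weights, other variance models, the list without testis genes and the pseudogene, and each array left out. Counts on shared probesets, and without members that appear on them, were added after seeing the data. Stem-loop sequences were not used here.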

Additional observations from a re-analysis of the deposited data

Results flagged for a closer look

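H2ac4 was singled out because saline array 3, at 6.96, lay far from the other 3 saline arrays. The gap to the nearest of them was 0.953 of the range of the 4 arrays, above Dixon's limit for 4 values. Of 37 groups of 4 saline values examined this way (named genes and group means), 1 stood out in this way, and chance alone gives about 1 in 20.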

How the results depend on the processing

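None of the histone genes passed the adjusted threshold under any of the 19 alternatives, and the lowest adjusted p of a named member was 0.172, for H2bu1-ps after quantile normalization. Single named genes were followed under the alternatives, 30 in all, of which 18 were members and the rest came from the linked lists. Of their values, 456 kept their direction and their side of the threshold and 16 turned sign. All 16 were values of the members H1f1, H1f3, H1f5, H2ac15, H2bc21 and H4c6. H1f3 became 0.0056 after centring and 0.016 after quantile normalization, H2ac15 became 0.012 and 0.016, and H1f5 became -0.0092 with array weights. With 1 array left out, H1f1 ran from -0.022 to 0.19, H1f3 from -0.06 to 0.035, H1f5 from -0.045 to 0.073, H2ac15 from -0.041 to 0.028, H2bc21 from -0.0048 to 0.17 and H4c6 from -0.002 to 0.29.

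The count of higher members at an unadjusted p under 0.05, 4 of 28 as reported, was 2 of 28 with no variance prior (2.61% of all tested genes). It was 2 of the 11 members that do not appear on shared probesets (3.85% of all tested genes). Over the shared probesets it was 0 of 27 (3.83%). With 1 saline array left out it ran from 2 to 3 of 28, beside 3.27% to 4.00% of all tested genes. The count of lower members, 0 as reported, was 1 of 19 with the dimmest 50% of genes left out (7.47% of all tested genes). It was 1 of 28 with array weights (9.65%) and with a mean-variance trend (8.37%), and 2 of 28 with no variance prior (7.65%). With 1 saline array left out it was 0 to 1 of 28, beside 5.70% to 10.5% of all tested genes. Members with both ethanol arrays above all saline arrays were 3 over the shared probesets and 3 without members that appear on them. With 1 saline array left out they were 6 to 7. With 1 ethanol array left out, only the remaining ethanol value was compared with the saline values. Members above were then 9 without ethanol array 2 and 13 without ethanol array 4. Members with both ethanol arrays below were 1 with the dimmest 50% left out and 0 each in the 2 counts that involve shared probesets. With 1 saline array left out they were 4 to 5. With a single ethanol value, members below were 9 without ethanol array 2 and 4 without ethanol array 4. A single value falls outside the saline values more easily, so those counts cannot be compared with counts from 2 ethanol arrays. For no overlap, the shares over all tested genes were not counted under these settings. The median ran from -0.012 to 0.084 with 1 array left out, and it was negative only without ethanol array 2. The cause was not tested, apart from fewer genes or arrays where these were left out. No paired analysis was possible because no label pairs an ethanol pool with a saline pool. Signal limits H3 most, with 2 of 3 genes dim.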
